A study of Mus musculus with 12 samples.

Results

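The genes described here are the Smads and the Id genes, 10 of the 14852 genes in the deposited expression table: Smad1, Smad2, Smad3, Smad4, Smad5, Smad6, Smad7, Id1, Id2 and Id3. They were chosen by gene symbol, and all 10 were found and reached the level needed for testing, Id2 in the cisplatin-treated samples alone. The ac4C peaks assigned to them number 23 of 19049. All samples came from ID8, an ovarian cancer cell line derived from mouse ovarian surface epithelium, either labelled control or treated with cisplatin, a platinum drug that crosslinks DNA. Each sample was split after rRNA depletion and fragmentation into input RNA and RNA pulled down by antibodies to N4-acetylcytidine (ac4C), a modified base written by the acetyltransferase NAT10, in 12 libraries, 3 for each treatment and fraction. The study asked what NAT10 and ac4C regulate in RNA under cisplatin. This single cell line is the whole model, and the sources used here give neither dose nor duration of the drug. Whether replicates came from separate cultures is not stated, so p-values measure only how these libraries vary, which may be technical.

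Smads carry signals from receptors of the TGF-beta family at the cell surface into the nucleus. Receptors for bone morphogenetic proteins (BMPs) phosphorylate Smad1 and Smad5, receptors for TGF-beta and activin phosphorylate Smad2 and Smad3, and these receptor-regulated Smads join the common partner Smad4 to bind DNA. Smad6 and Smad7, the inhibitory Smads, block the receptors and are themselves induced by the pathway as feedback. The Id genes are classic targets of BMP signalling; their products lack a DNA-binding region and hold E proteins, a class of helix-loop-helix transcription factors, away from DNA. In ovarian surface epithelium TGF-beta is known as a restraint on proliferation.

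Input levels are given in FPKM, the authors' fragment counts scaled by gene length and library size, so levels may be compared between genes. The input values corresponded to 20682920 to 21900044 fragments in listed genes per control library and 22201704 to 30159427 per cisplatin library, and the deepest was cisplatin replicate 2. Libraries of a treatment correlated at Pearson r of 0.989 or more over the genes tested, and control with cisplatin libraries at 0.833 to 0.847. All 11 markers of ovarian surface epithelium and mesothelium were in the expression table and summed to 2112 to 2145 FPKM per control and 2964 to 3312 FPKM per cisplatin library. Among them the keratin gene Krt8 was at 587 ± 10.8 FPKM in control libraries and 967 ± 36.7 FPKM in those with cisplatin, Wt1 at 45.1 ± 1.08 and 12.4 ± 0.599 FPKM, and Krt7 near 0 in both (0.178 ± 0.138 and 0.0105 ± 0.00925 FPKM). Of 7 leukocyte markers 6 were absent from the expression table, and the remaining gene, Cd68, was at 2.41 ± 0.175 FPKM without and 8.89 ± 1.21 FPKM with cisplatin (mean ± SD, n = 3, as for all levels given as mean ± SD). Of 5 endothelial markers 4 were absent from it and Tek was at 0.846 ± 0.109 and 2.64 ± 0.146 FPKM, and of 6 fibroblast and smooth muscle markers the 4 listed summed to 19.1 to 19.8 FPKM per control and 11.1 to 12.8 FPKM per cisplatin library, with Acta2 and Pdgfrb near 0. The other listed fibroblast markers were expressed, Dcn at 12.8 ± 0.289 and 9.90 ± 0.959 FPKM and Pdgfra at 6.4 ± 0.273 and 2.04 ± 0.164 FPKM. The part of other cell types in the results was not tested. In these bulk samples fewer cells of a type and less RNA per cell cannot be told apart.

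The main comparison asked how cisplatin treatment changed the input RNA of each Smad and Id gene. All 3 Id genes and the inhibitory Smad7 were higher after cisplatin, while Smad3, Smad5, Smad6 and Smad4 were lower. Smad1 rose by a small amount, and the Smad2 difference did not pass the test. Of the 10 genes, 5 were higher and 4 lower at an adjusted p of 0.05 (limma on log2(FPKM + 1), Benjamini-Hochberg adjustment over 11449 genes). Across all genes tested 40.1% were higher and 41.1% lower, 81.3% in all, so the number of members called is near the background and is not a result about them. The ranges of the treatments were separate in 9 of the 10 genes, Smad2 being the exception, and in 84.2% of all genes tested. The values follow by role, with gene positions from RefSeq on GRCm38.p6, the assembly behind mm10.

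**Figure D1:**
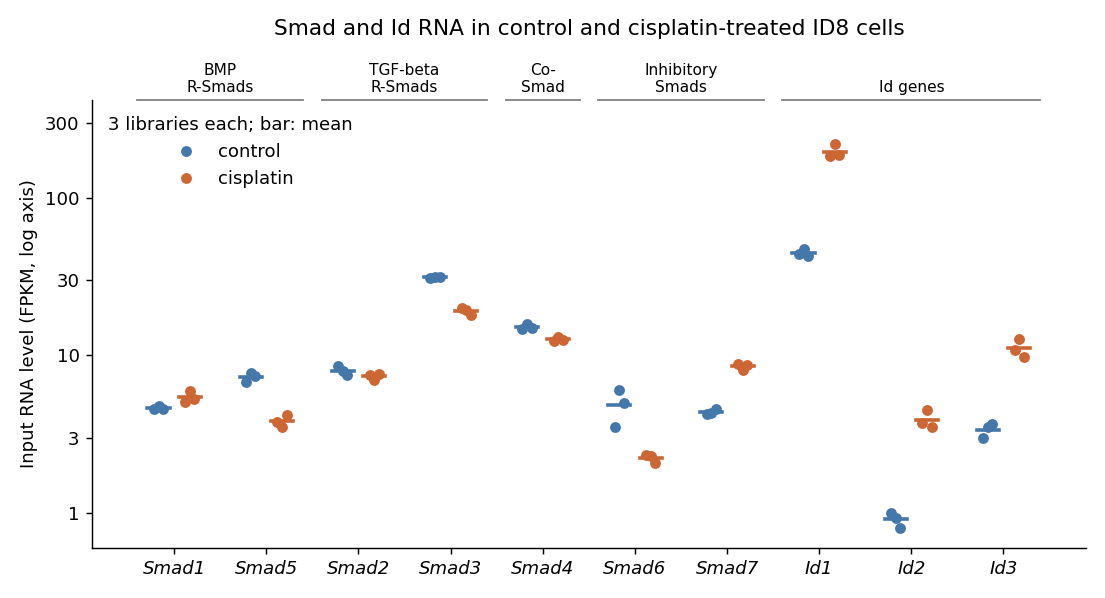
Input RNA levels in FPKM on a log axis for each Smad and Id gene, grouped by role; each point is a library (3 control, 3 cisplatin) and each bar the mean of 3. Points of the treatments overlap for Smad2 alone, and Id1 has the highest level of the 10 genes in both treatments, with means of 44.9 and 197.9 FPKM.

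Id1 (chr2:152736251-152737410), whose product inhibits E proteins, measured 44.0, 47.8 and 42.9 FPKM in control replicates 1, 2 and 3 and 186, 219 and 188 FPKM in cisplatin replicates 1, 2 and 3. Every cisplatin library lay far above every control library, and replicate 2 was the highest of each treatment. The mean rose 4.41-fold, from 44.9 ± 2.57 to 197.9 ± 18.7 FPKM, a log2 change of 2.11 (SE 0.072, limma adjusted p = 3.425e-07). On this log2(FPKM + 1) scale, where the changes of low genes come out too small, it was larger than that of 95.9% of all genes tested, in either direction. Id3 (chr4:136143822-136145392), of the same family, measured 2.97, 3.51 and 3.66 FPKM in control and 10.8, 12.7 and 9.80 FPKM in cisplatin replicates 1, 2 and 3. Its groups did not overlap either, and the mean rose 3.28-fold with a log2 change of 1.46 (SE 0.103, limma adjusted p = 7.74e-06). Id2 (chr12:25093799-25096092) was the lowest of the 10 genes in control cells, at 0.999, 0.932 and 0.796 FPKM, and measured 3.71, 4.47 and 3.50 FPKM in cisplatin replicates 1, 2 and 3. The control libraries held 55, 52 and 42 fragments of Id2 and the cisplatin libraries 220, 333 and 188 fragments, so its level rests on few fragments without drug. Its mean rose 4.28-fold, and the log2 change was 1.36 (SE 0.089, limma adjusted p = 5.623e-06). Id2 reached the 1 FPKM needed for testing in the cisplatin libraries alone. It was tested only because it is high there, so its p is not separate support for the rise.

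Because 1 FPKM was added before taking log2, the log2 changes of low genes come out too small, which bears most on Id2. With a pseudocount of 0.1 FPKM in place of 1 FPKM the log2 changes were 2.14 for Id1, 1.98 for Id2 and 1.68 for Id3. In the authors' deposited table the log2 fold changes were 2.14, 2.10 and 1.72 in that order. Cisplatin replicate 2 was the highest cisplatin library for each Id gene, and without it the changes were 2.04 for Id1, 1.27 for Id2 and 1.37 for Id3, with limma adjusted p of 7.306e-07, 9.965e-06 and 1.565e-05. The differences in size between the Id genes were not tested.

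Id1 made up most of the Id RNA in both treatments. The 3 Id genes summed to 48.0, 52.2 and 47.3 FPKM in control and 200.5, 237 and 201.5 FPKM in cisplatin replicates 1, 2 and 3. The share of Id1 in that sum was 91.3% ± 0.614 in control and 93.0% ± 0.376 in cisplatin libraries, and the ranges of 90.6% to 91.7% and 92.7% to 93.4% did not overlap. The share of Id3 was 6.88% ± 0.793 in control and 5.21% ± 0.297 in cisplatin libraries, and that of Id2 was 1.85% ± 0.207 and 1.83% ± 0.0808. The composition of the family thus moved by under 2 percentage points while its summed level went from 49.2 ± 2.66 to 212.9 ± 20.6 FPKM.

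Of the 10 genes, 6 matched an entry in the RefSeq promoter table (GRCm38.p6): Id2, Id3, Smad1, Smad3, Smad5 and Smad6. The stretches before the start sites of Id2 and Id3, which rose together, and of Smad6, which fell, are shown 5′ to 3′ because BMP-activated Smads act on the promoters of these genes. Capitals mark GGCGCC, a palindrome of GC-rich Smad sites, and GTCT or AGAC, the Smad box on either strand; none overlap, with each other or with the E-box named after them.
Id2 (chr12:25096093-25096342, minus strand): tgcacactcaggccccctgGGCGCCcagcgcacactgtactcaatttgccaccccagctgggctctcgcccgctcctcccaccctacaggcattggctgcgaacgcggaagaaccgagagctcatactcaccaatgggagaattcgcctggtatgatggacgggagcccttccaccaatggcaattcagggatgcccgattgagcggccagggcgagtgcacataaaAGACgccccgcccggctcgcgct
Id3 (chr4:136143572-136143821, plus strand): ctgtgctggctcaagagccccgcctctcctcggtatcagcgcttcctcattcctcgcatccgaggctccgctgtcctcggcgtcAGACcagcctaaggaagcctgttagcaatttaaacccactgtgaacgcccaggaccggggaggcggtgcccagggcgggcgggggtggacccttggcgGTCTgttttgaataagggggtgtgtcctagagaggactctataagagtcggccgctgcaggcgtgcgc
Smad6 (chr9:64022086-64022309, minus strand): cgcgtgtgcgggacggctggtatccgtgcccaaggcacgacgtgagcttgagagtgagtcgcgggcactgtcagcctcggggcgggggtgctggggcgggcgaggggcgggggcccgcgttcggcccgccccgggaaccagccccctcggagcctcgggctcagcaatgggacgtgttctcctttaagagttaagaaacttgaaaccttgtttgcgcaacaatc
The Id2 stretch of 250 bases holds 1 GGCGCC, which begins 231 bases before the start, and 1 Smad box, and the Id3 stretch holds 2 Smad boxes and no GGCGCC. The Smad6 stretch of 224 bases holds neither motif, nor does that of Smad1, while those of Smad3 and Smad5 hold 1 Smad box each and no GGCGCC. Of 32851 promoters in the table, 9.59% hold GGCGCC and 82.9% hold a Smad box in the 250 bases before the start. The E-box CANNTG, which E proteins bind, occurs 1 time each in the Id2 and Smad5 stretches and in none of the other 4, against 66.2% of all promoters with at least 1. These matches describe the letters in the window, and a missing match says nothing of sites elsewhere.

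The BMP-regulated Smads went apart. Smad5 (chr13:56703010-56742378) measured 6.77, 7.74 and 7.36 FPKM in control and 3.79, 3.53 and 4.19 FPKM in cisplatin replicates 1, 2 and 3, without overlap. Its mean fell by 47.4%, from 7.29 ± 0.485 to 3.84 ± 0.335 FPKM (log2 change -0.78, SE 0.073, limma adjusted p = 3.553e-05). Smad1 (chr8:79338395-79399428) measured 4.54, 4.74 and 4.59 FPKM in control and 5.07, 5.95 and 5.27 FPKM in cisplatin replicates 1, 2 and 3, so every cisplatin library lay above the controls by a small margin. Its log2 change of 0.19 (SE 0.065, limma adjusted p = 0.02723) was smaller in size than that of most genes tested, of which 20.7% changed less. The Smad1 call was lost without cisplatin replicate 2 (log2 change 0.13, adjusted p = 0.0582), and so it was on leaving out control replicate 1 (0.18, adjusted p = 0.0817), 2 (0.21, adjusted p = 0.0543) or 3 (0.19, adjusted p = 0.0756). It was also lost with libraries rescaled to a common FPKM sum (0.11, adjusted p = 0.173) and with voom on recovered fragments (0.18, adjusted p = 0.0561).

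Smad1 and Smad5 together held 11.9 ± 0.585 FPKM in control libraries and 9.27 ± 0.347 FPKM in those with cisplatin. Within that pair the share of Smad1 was 40.1%, 38.0% and 38.4% in control and 57.2%, 62.8% and 55.7% in cisplatin replicates 1, 2 and 3. Smad5 was thus the more abundant RNA of the pair in each control library and Smad1 in each cisplatin library. As a share of all 7 Smads the pair was 15.8% ± 0.338 in control and 15.6% ± 0.728 in cisplatin libraries. Smad9, the remaining BMP-regulated Smad, was at 0.0727 ± 0.0265 FPKM in control libraries and 0.00256 ± 0.00443 FPKM in those with cisplatin, below the level needed for testing.

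Of the Smads regulated by TGF-beta and activin, Smad3 fell and Smad2 did not pass the test. Smad3 (chr9:63646766-63757994), the most abundant Smad in both treatments, measured 31.2, 31.4 and 31.5 FPKM in control and 19.9, 19.3 and 18.2 FPKM in cisplatin replicates 1, 2 and 3. The control libraries were almost equal and lay wholly above the cisplatin libraries. Its mean fell by 39.0%, from 31.4 ± 0.134 to 19.2 ± 0.868 FPKM (log2 change -0.68, SE 0.040, limma adjusted p = 3.187e-06). Smad2 (chr18:76241090-76311748) measured 8.53, 7.96 and 7.47 FPKM in control and 7.53, 6.99 and 7.60 FPKM in cisplatin replicates 1, 2 and 3, and these ranges overlap. Its log2 change was -0.10, with a 95% interval of -0.24 to 0.04 (limma adjusted p = 0.1554). That interval leaves out a decrease of the size measured for Smad3. The Smad2 call was gained with libraries rescaled to a common FPKM sum (-0.19, adjusted p = 0.0182) and with voom on recovered fragments (-0.18, adjusted p = 0.0345). Smad3 made up 79.7% ± 1.14 of the sum of Smad2 and Smad3 in control and 72.2% ± 1.48 in cisplatin libraries.

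Smad4 (chr18:73634790-73703791), the shared partner, measured 14.7, 15.8 and 14.9 FPKM in control and 12.4, 13.1 and 12.5 FPKM in cisplatin replicates 1, 2 and 3. The groups did not overlap, and the mean fell by 16.2%, with a log2 change of -0.24 (SE 0.044, limma adjusted p = 0.00154). This is a small change for these data, where 25.2% of genes tested changed less. The sum of all 7 Smads was 75.6 ± 2.18 FPKM in control libraries and 59.3 ± 0.642 FPKM in those with cisplatin, and Smad3 made up 41.5% ± 1.13 and 32.3% ± 1.12 of it.

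The inhibitory Smads moved in opposite directions. Smad7 (chr18:75367365-75395935), which recruits ubiquitin ligases to TGF-beta receptors, measured 4.26, 4.33 and 4.54 FPKM in control and 8.86, 8.12 and 8.75 FPKM in cisplatin replicates 1, 2 and 3. All cisplatin libraries lay above all control libraries with little spread in either group. Its mean rose 1.96-fold, from 4.38 ± 0.144 to 8.57 ± 0.397 FPKM (log2 change 0.83, SE 0.053, limma adjusted p = 4.784e-06). Smad6 (chr9:63953076-64022085), which acts mainly against BMP receptors, measured 3.52, 6.00 and 4.97 FPKM in control and 2.32, 2.30 and 2.07 FPKM in cisplatin replicates 1, 2 and 3. The control libraries were spread widely, with 255, 440 and 345 fragments, yet the lowest of them lay above all cisplatin libraries. Its mean fell by 53.8%, from 4.83 ± 1.24 to 2.23 ± 0.143 FPKM (log2 change -0.83, SE 0.150, limma adjusted p = 0.001379).

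The ratio of Smad7 to Smad6 was 1.21, 0.722 and 0.912 in control and 3.81, 3.53 and 4.23 in cisplatin replicates 1, 2 and 3. The ratios of the treatments did not overlap and differed by 2.05 on the log2 scale (exact two-sided permutation test of 3 against 3 libraries, p = 0.1, the smallest it allows). Together the inhibitory Smads held 9.21 ± 1.30 FPKM in control libraries and 10.8 ± 0.381 FPKM in those with cisplatin, which was 12.2% ± 1.4 and 18.2% ± 0.582 of all Smad RNA.

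**Figure D2:**
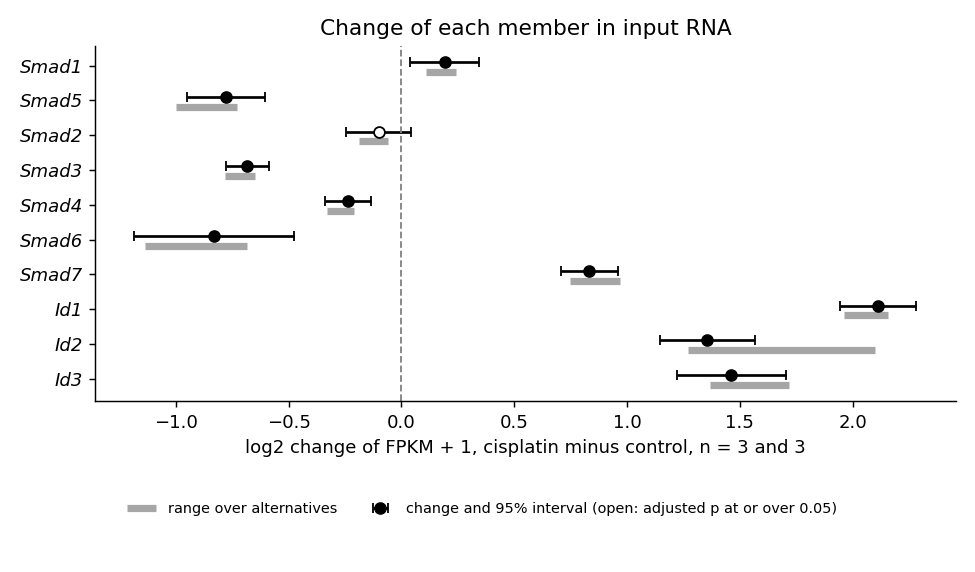
Log2 change of FPKM + 1, cisplatin minus control (3 libraries each), for each gene; black points and bars give the limma estimate and its 95% interval, open for an adjusted p at or over 0.05, and grey bars give the lowest and highest value over the alternatives, including the authors' fold changes and voom on their own scales. Estimates run from -0.83 for Smad6 to 2.11 for Id1, and no grey bar crosses 0.

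Ordered by level, the control cells had Id1, Smad3, Smad4, Smad2, Smad5, Smad6, Smad1, Smad7, Id3 and Id2 from high to low. Of these neighbours, Smad2 and Smad5 had overlapping ranges over replicates, as did Smad6 and Smad1. After cisplatin the order was Id1, Smad3, Smad4, Id3, Smad7, Smad2, Smad1, Id2, Smad5 and Smad6, where Smad4 overlapped with Id3 and Id2 with Smad5. The top 3 places were held by the same genes in both treatments, and Id2 moved from the last place to a level like that of Smad5.

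For the members other than Smad7, the protein-coding gene with the most similar profile over the 6 input libraries was found by the root mean square difference of centred log2(FPKM + 1) values. The 6 libraries fall into 2 treatments, so such likeness mostly describes a change of like size and direction on that scale. Nearest to Id1 was Myc, a growth-promoting transcription factor gene, with 35.7 ± 0.995 FPKM in control libraries and 166.5 ± 16.2 FPKM in those with cisplatin, at a difference of 0.0487. Nearest to Smad3 was the complement gene C3 (391 ± 2.49 and 240.4 ± 7.93 FPKM, difference 0.0131), and nearest to Smad4 was Stat5b, a cytokine-activated transcription factor gene (11.1 ± 0.366 and 9.22 ± 0.319 FPKM, difference 0.00682). The nearest genes of the other members were Htra2 for Id2 (0.0369), Frs3 for Id3 (0.0536), Use1 for Smad1 (0.0179), Dtnbp1 for Smad2 (0.024), Cacna2d1 for Smad5 (0.0385) and Pigp for Smad6, which had the largest distance (0.0777). For low genes the fold of FPKM can differ from the member's. Frs3 rose 7.6-fold against 3.28-fold for Id3, and Pigp fell by 74.6% against 53.8% for Smad6. Frs3 reached 1 FPKM in the cisplatin libraries alone and Pigp in the control libraries alone.

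Other genes of the pathway were taken from 6 lists of 107 genes, of which 77 were in the expression table and 70 were tested. Of these 32 were higher and 36 lower, beside 40.1% and 41.1% of all genes tested, and their median log2 change was -0.15, against -0.00 for all genes tested and 0.04 for the 10 members. Upstream of the BMP Smads, receptors were mostly lower: 5 of 6 tested receptors and co-receptors fell, with a median of -0.48. The type I receptor genes Acvr1 and Bmpr1a went from 17.4 ± 0.194 to 5.37 ± 0.466 FPKM (limma adjusted p = 5.678e-07) and from 10.1 ± 0.318 to 6.71 ± 0.242 FPKM (adjusted p = 3.09e-05). The type II receptor genes Bmpr2 and Acvr2a went from 6.36 ± 0.0558 to 4.44 ± 0.0483 FPKM (adjusted p = 6.554e-05) and from 9.43 ± 0.59 to 6.21 ± 0.27 FPKM (adjusted p = 8.723e-05). The co-receptor gene Rgma, named after its values were seen, was the member of that list that rose, from 0.218 ± 0.0458 to 1.58 ± 0.241 FPKM. It passed the filter of 1 FPKM in 3 libraries through the cisplatin libraries alone.

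BMP ligands and antagonists were divided, with 4 of 9 tested genes higher and 5 lower. The ligand gene Bmp4 rose from 15.7 ± 0.68 to 22.8 ± 1.49 FPKM (limma adjusted p = 9.063e-05), and Fst, whose product follistatin binds activins and BMPs, from 5.49 ± 0.55 to 17.4 ± 1.02 FPKM (adjusted p = 1.493e-06). The BMP-binding genes Bmper and Crim1 fell, from 21.1 ± 0.236 to 12.2 ± 0.264 FPKM and from 49.2 ± 0.371 to 39.3 ± 1.15 FPKM. Among TGF-beta and activin ligands and receptors 3 of 9 rose and 6 fell; the activin subunit gene Inhbb rose from 3.36 ± 0.121 to 7.17 ± 0.502 FPKM and the type I receptor gene Tgfbr1 from 5.61 ± 0.408 to 9.62 ± 0.0253 FPKM (limma adjusted p = 1.836e-05). The ligand genes Tgfb2 and Tgfb3 fell, from 10.2 ± 0.664 to 5.06 ± 0.551 FPKM and from 43.7 ± 1.07 to 33.3 ± 0.715 FPKM. Inhba, named after its values were seen, was among the genes that rose, from 0.119 ± 0.0223 to 2.90 ± 0.281 FPKM. Inhba passed the filter of 1 FPKM in 3 libraries through the cisplatin libraries alone.

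Smad regulators were split evenly, with 14 of 30 tested genes higher, 14 lower and a median log2 change of -0.06. Those higher include Tgif2, named after its values were seen. It passed the filter of 1 FPKM in 3 libraries through the cisplatin libraries alone. The 4 regulators with the smallest adjusted p among those at 5 FPKM or more in a treatment were all lower: the ubiquitin ligase gene Wwp2 went from 10.3 ± 0.318 to 3.23 ± 0.0908 FPKM (limma adjusted p = 3.726e-07), Zfyve9, which encodes the anchor that presents Smad2 and Smad3 to receptors, from 10.9 ± 0.115 to 5.10 ± 0.341 FPKM (adjusted p = 2.651e-06), the phosphatase gene Ctdsp1 from 26.6 ± 0.379 to 14.2 ± 0.731 FPKM, and the deubiquitinase gene Usp9x from 28.9 ± 0.535 to 17.5 ± 0.721 FPKM. Some close relatives, named after their values were seen, went opposite ways. Of the ubiquitin ligase genes that mark Smads and their receptors for degradation, Smurf1 rose from 13.4 ± 0.659 to 21.9 ± 0.641 FPKM and Smurf2 fell from 11.9 ± 0.30 to 7.74 ± 0.314 FPKM. Of the co-repressor genes, Skil rose from 11.1 ± 0.209 to 18.04 ± 1.13 FPKM and Ski fell from 27.4 ± 0.591 to 20.3 ± 1.28 FPKM.

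Of 10 tested Smad target genes outside the members, 7 were higher and 3 lower, with a median log2 change of 0.43. Junb, an AP-1 subunit gene, rose from 14.2 ± 0.844 to 39.7 ± 2.44 FPKM (limma adjusted p = 7.041e-07), and the matricellular genes Ctgf and Cyr61 rose by 1.74 and 1.01 on the log2 scale. Atoh8, a BMP target that encodes a helix-loop-helix factor, went the other way, from 12.3 ± 0.20 to 4.11 ± 0.457 FPKM (adjusted p = 1.547e-06). Many of these targets answer to other pathways as well. Of the helix-loop-helix partners of Id proteins 3 of 6 were higher and 3 lower. Of the 3 E protein genes, Tcf12 fell from 8.73 ± 0.142 to 2.98 ± 0.0444 FPKM (limma adjusted p = 4.296e-07), while Tcf3 rose from 15.2 ± 0.255 to 18.7 ± 1.10 FPKM (adjusted p = 0.001205). The third, Tcf4, named after its values were seen, fell from 1.24 ± 0.0673 to 0.279 ± 0.0511 FPKM (limma adjusted p = 1.064e-05). Tcf4 passed the filter of 1 FPKM in 3 libraries through the control libraries alone, so its p is not separate support for the fall. Bhlhe40, a helix-loop-helix repressor gene that is not an E protein gene, rose from 29.9 ± 1.08 to 53.7 ± 1.58 FPKM. Hes6 fell from 6.90 ± 0.861 to 5.49 ± 0.227 FPKM (limma adjusted p = 0.01816). The Hes6 call was lost without cisplatin replicate 1 (log2 change -0.25, adjusted p = 0.0622), control replicate 2 (-0.21, adjusted p = 0.0643) or control replicate 3 (-0.26, adjusted p = 0.064).

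**Figure D3:**
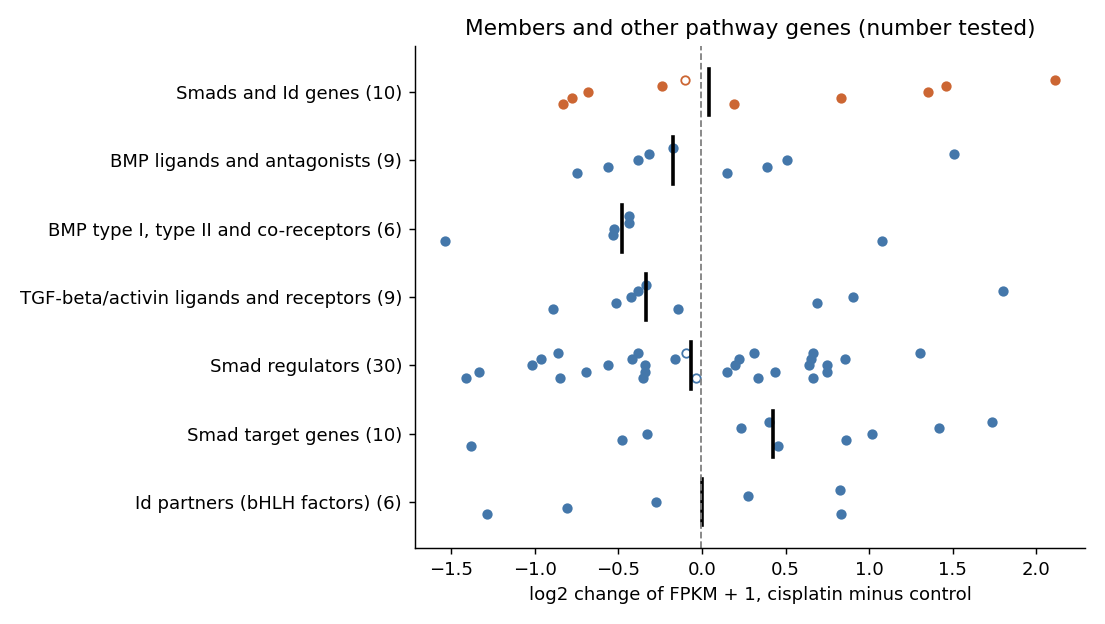
Log2 change of FPKM + 1, cisplatin minus control, for the Smads and Id genes (orange) and for the tested genes of each pathway list (blue), with the number tested in brackets; each point is a gene, open where the adjusted p is at or over 0.05, black bars are medians and the dashed line is the median of all genes tested. The receptor list has a median of -0.48 and the Smad target list one of 0.43.

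Nat10 measured 6.36, 6.601 and 6.09 FPKM in control and 6.92, 7.01 and 7.51 FPKM in cisplatin replicates 1, 2 and 3, a log2 change of 0.15 (limma adjusted p = 0.03455). Leaving out cisplatin replicate 3 ended that call (adjusted p = 0.0789), and so did leaving out control replicate 1 (0.0841) or 3 (0.117). Rescaled libraries (log2 change 0.06, adjusted p = 0.314), voom (adjusted p = 0.101) and a replicate block (adjusted p = 0.0706) ended it too.

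The second comparison asked where ac4C peaks lie in Smad and Id transcripts and whether they differed between the treatments. Every one of the 10 genes had at least 1 peak in the authors' deposited table, 23 in all, each inside the RefSeq span of its gene. Positions are on mm10 and run from the first to the last base of a peak, so a peak of several exon blocks spans introns, and regions are as the authors annotated them. The table gives for each peak a fold enrichment of precipitated over input RNA, a log2 difference between the treatments and an adjusted p of that difference, with no value per library. Which treatment a positive difference favours is not stated; it is likely cisplatin, since the table's name puts cisplatin first, and so does that of the expression table, where 99.9% of tested genes had a deposited fold change with the sign of cisplatin over control. Signs are therefore given as deposited.

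At the authors' adjusted p of 0.05, 10 of the 23 peaks differed (43.5%), near the 46.2% of all 19049 peaks. The peaks that differed lay in Smad3, Smad2, Smad4 and Smad7, with 10 of 19 Smad peaks and 0 of 4 Id peaks. The adjusted p of the 4 Id peaks ran from 0.0832 to 0.730, and whether Smad and Id peaks differ in this was not tested. Of the 10 peaks that differed, 9 had a positive and 1 a negative log2 difference as deposited. Of all 8792 peaks that differed, 6959 were positive and 1833 negative, so this lean is near the background and is not a result about the members. Of all 23 peaks 11 lay in coding sequence, 10 in 3′ and 2 in 5′ untranslated regions, against 50.5%, 29.5% and 2.28% of all peaks.

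Smad3 had 6 peaks, the most of the 10 genes, and 5 of them differed. A peak over 4 coding exon blocks (chr9:63663683-63667563) was enriched 3.25-fold over input in the authors' deposited table, with a log2 difference of 4.02 and an adjusted p of 7.943e-22. The neighbouring coding peak upstream in the gene (chr9:63667745-63711947, 2 blocks, 3.13-fold) had a difference of the opposite sign, -2.13 (adjusted p = 0.000832), and was the peak with a negative value among those called. The other 4 lay in the 3′ untranslated region close to each other. From the gene's end inward they were chr9:63647695-63647875, with a log2 difference of 5.17 (adjusted p = 0.0275), chr9:63647995-63648205 with -0.41 (adjusted p = 0.282), chr9:63648295-63648534 with 3.20 (adjusted p = 7.943e-13) and chr9:63649103-63649253 with 4.43 (adjusted p = 0.00708). Neighbouring peaks of this gene therefore carried opposite signs.

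Smad2 had 3 coding peaks. The deposited log2 difference was 6.00 at chr18:76302080-76302425 (adjusted p = 6.166e-06, 3.13-fold enriched), 4.08 at chr18:76262477-76262656 (adjusted p = 0.00224, 10.3-fold) and 3.03 at chr18:76286907-76288064, which did not pass (adjusted p = 0.0741). Smad4 had 2 coding peaks and both differed, with 4.03 at chr18:73658623-73662715 (20-fold enriched, adjusted p = 0.000603) and 4.58 at chr18:73677684-73677804 (7.18-fold, adjusted p = 0.00209). Input RNA of Smad2 did not pass the test and that of Smad4 fell by 16.2%, so these peak differences stood beside small differences in RNA level.

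Of the inhibitory Smads, each had a peak in the 5′ untranslated region. The Smad7 peak (chr18:75367978-75368098, 613 bases from the gene's start) had a log2 difference of 3.74 (adjusted p = 0.0316), and that of Smad6 (chr9:64021340-64021520, 565 bases from the start) one of 4.17 that did not pass (adjusted p = 0.129). A second Smad7 peak, in the 3′ untranslated region, had a difference of 0 (adjusted p = 0.787). Its enrichment over input was the least certain of the 23 peaks (7.05-fold, log10 p of -1.62). The BMP-regulated Smads had 1 peak in Smad1 and 4 in Smad5, none of which passed (adjusted p = 0.0832 to 0.653). They included the peak with the highest enrichment of the 23, a coding peak of Smad5 at chr13:56735804-56737411 (25.9-fold, log2 difference 3.17, adjusted p = 0.130). The Smad5 peak at chr13:56739535-56739655 was weakly supported over input (4.31-fold, log10 p of -2.21).

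The Id peaks had fold enrichments of 8.23 to 16.3 in the authors' deposited table, against a median of 7.05 over all peaks. Id1 had a peak in the 3′ untranslated region (chr2:152737143-152737351) that ends 59 bases before the end of the gene, was 8.39-fold enriched with a log10 p of -32.4, and had a log2 difference of 2.02 (adjusted p = 0.230). The stronger of the Id2 peaks covered 328 bases of coding sequence (chr12:25095689-25096016, 16.3-fold, log10 p of -29.6), with a difference of 1.63 (adjusted p = 0.0832). The other Id2 peak, in the 3′ untranslated region (chr12:25094245-25094393, 11.8-fold, log10 p of -2.58), had a difference of 1.58 (adjusted p = 0.687). The peak of Id3 (chr4:136144004-136144124, 8.23-fold, log10 p of -2.21) had a difference of 0.41 (adjusted p = 0.730). Enrichment over input was thus far less certain for the Id3 peak and this Id2 peak than for the Id1 peak and the coding Id2 peak. The Id transcripts whose input RNA rose 3.28-fold to 4.41-fold thus had no peak with a called difference. The input libraries held 11671 control and 8180 cisplatin fragments of Smad3, 3499 and 17828 of Id1, 406 and 1552 of Id3 and 149 and 741 of Id2. The part of these depths in which peaks were called was not tested.

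**Figure D4:**
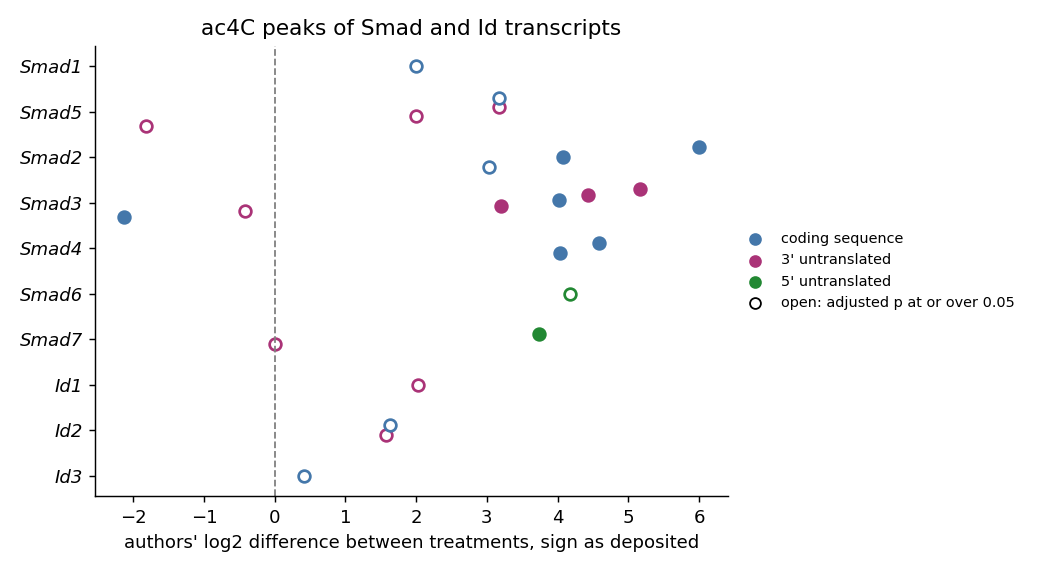
Authors' log2 difference between the treatments (sign as deposited) for the 23 ac4C peaks of Smad and Id transcripts; each point is a peak, coloured by region and filled where the authors' adjusted p is under 0.05. Filled points lie in Smad2, Smad3, Smad4 and Smad7, 9 of them above 0 and 1 at -2.13; of all 8792 peaks that differed, 6959 were above 0 and 1833 below.

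In the pathway lists 151 peaks fell in 55 genes, and 74 of them differed (49.0%), again near the 46.2% of all peaks. By list the share ran from 40.0% for BMP receptors and for Smad targets to 57.5% (42 of 73) for Smad regulators. The largest differences were 8.37 in Trim33, a ubiquitin ligase gene that acts on Smad4 (chr3:103310960-103321579, adjusted p = 3.162e-11), and 7.67 and 6.34 in the BMP receptor gene Bmpr1a (chr14:34424958-34429714 and chr14:34434721-34443971, adjusted p = 1e-22 and 2.512e-13).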

How the data were processed

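The members and gene lists were chosen with earlier results of these data known. The authors' deposited table gives FPKM for 6 input libraries beside the authors' log2 fold changes with raw and adjusted p-values, whose test the sources used here do not state. A second deposited table gives ac4C peaks with a ratio (fold enrichment), the log2 difference, and scores that are log10 of p, per the file headers. Per the submitters' processing notes, mm10, HOMER, HISAT2, FastQC and fastp were used, with no versions or roles. Libraries were strand-specific, per the labels' protocols; for peak caller, annotation and counter no source used here gives a name. Fold enrichments and peak statistics are the authors'.

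The 11449 genes that reached 1 FPKM in 3 libraries were fitted on log2(FPKM + 1) with limma 3.58.1 in R 4.3.3 (lmFit, then eBayes with trend), with Benjamini-Hochberg adjustment over all of them. The fit was also run on simulated data of equal spread in both treatments. These libraries do not have that property, so the run does not show how the fit performs on them. Library depth came from the FPKM steps: the values of all 14852 genes were whole multiples of 1 fragment within 0.0001, and the smallest whole numbers were taken as fragments. Peak starts were converted to counting from 1. Named genes were the members, Nat10, up to 4 genes per list with the smallest adjusted p and at least 5 FPKM in a treatment, the nearest gene to each member (that of Smad7 is not reported here), all member peaks and the 3 largest list peaks. Replicate numbers were not used as pairs in the main fit. Plots were drawn with matplotlib 3.10.9, and tables made with pandas 2.3.3 and scipy 1.17.1 (Python 3.11.15). Precipitated libraries entered only through the authors' peak table.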

Additional observations from a re-analysis of the deposited data

How the results depend on the processing

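The alternatives were a pseudocount of 0.1 FPKM, no filter or one at 5 FPKM, rescaled or quantile-normalised libraries, voom on recovered fragments, a replicate block, leaving out each library, and the authors' adjusted p. The count of members higher was 4 or 5 and of members lower 3 to 5 over these, and the pathway lists gave 29 to 34 or, at 5 FPKM, 25 genes higher, and 27 to 41 lower. For Smad3, Smad4, Smad5, Smad6, Smad7, Id1, Id2 and Id3 the call held in each alternative that tested the gene. A filter at 5 FPKM left out Smad6 and Id2. Smad1, Smad7 and Id3 passed that filter through the cisplatin libraries alone and Smad5 through the control libraries alone. For these genes it is therefore not separate support. Of 488 single-gene values over 35 genes, 471 kept their side of the threshold, 15 lost it, 2 gained it and 0 reversed; those that lost it were of Smad1, Nat10 and Hes6, and both that gained it were of Smad2. With the replicate number as a block 5 members and 31 pathway genes were higher and 4 and 36 lower, and of the 35 genes refitted under the alternatives (the members, Nat10 and the genes named by the rule from each list) Nat10 alone changed its call. Deviations of control and cisplatin libraries with the same number correlated at -0.116 to 0.097, and those with different numbers at -0.166 to 0.078. No shared effect of the number was seen, but whether samples were prepared in pairs cannot be told from these values. Rescaling moved the median log2 change of all genes by -0.08. A threshold of 0.01 kept 8 of the 10 called member peaks. Fragment counts limit Id2 and Id3 in control libraries, and intervals cover no peak value, since these have no replicate here.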
